A study of Homo sapiens with 9 samples.

Results

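The cytoplasmic ribosomal protein (RP) genes were examined for γH2AX binding in human B-lymphocytes under replication stress (RS). Members were the autosomal protein-coding genes of GENCODE whose symbol is RPL or RPS with digits and at most an A, X or L ending, or RPLP0 to RPLP2, which gave 77 of 19111 autosomal protein-coding genes. Members on the sex chromosomes and the RPS6 kinases are outside this definition. Each gene was extended by 5 kb to each side, and the 7839 other autosomal protein-coding genes shorter than 20 kb (short genes) were treated in the same way. A gene counted as bound in a library when at least 1 peak overlapped this window by 1 bp or more.

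ChIP-seq with an antibody against H2AX phosphorylated at its C terminus, the mark laid down at stalled forks and breaks, was done in 8 libraries from an established human B-lymphocyte line, called GM07027 in the study's text and GM09027A in the sample labels. A pair of libraries came from untreated cells. The other pairs came from cells exposed for 24 h to 0.1 μg/mL aphidicolin (APH), which inhibits replicative DNA polymerases, to 2 mM hydroxyurea (HU), which depletes nucleotides, or to 200 μM methyl methanesulfonate (MMS), which methylates DNA. According to the study's methods the replicates of a treatment came from separate treatments and separate ChIP experiments, while the labels only number them. The untreated lists contained 4779 and 4327 autosomal peaks. The number was 17658 and 14009 with APH, 79891 and 69922 with HU, and 12202 and 10465 with MMS. Read depth behind the lists is unknown, so a higher number of peaks in one condition and a deeper or better enriched library cannot be told apart.

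RP genes encode the protein part of the ribosome, one gene per protein in most cases, and they are among the most strongly transcribed genes of a dividing cell. They are short, start in a CpG island, and begin transcription at a C in a tract of pyrimidines (a terminal oligopyrimidine, or TOP, start) that places their mRNAs under the control of mTOR and LARP1. Many carry small nucleolar RNAs (snoRNAs), the guides of rRNA modification, in their introns, and loss of a single copy of several of them causes Diamond-Blackfan anaemia (DBA). Transcription was not measured in these libraries.

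Because the results turn on where peaks lie relative to the start, the start of 6 members is shown, from RefSeq on GRCh38.p14, as 30 bases with 15 before the first transcribed base. The tract of C and T at the start is in capitals.
RPL11, chr1:23691791-23691820, plus strand: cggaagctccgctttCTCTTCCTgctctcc
RPS3, chr11:75399503-75399532, plus strand: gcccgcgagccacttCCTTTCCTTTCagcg
RPS19, chr19:41860240-41860269, plus strand: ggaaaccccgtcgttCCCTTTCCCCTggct
RPL35A, chr3:197950175-197950204, plus strand: cggcggggcctcgtcCTTCTCTTaccgcca
RPL12, chr9:127451392-127451421, minus strand: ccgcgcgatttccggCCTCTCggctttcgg
RPLP2, chr11:809952-809981, plus strand: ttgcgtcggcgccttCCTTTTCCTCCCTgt
Of the 77 members, 60 had an entry in this table, and in 45 of these (75%) a C with at least 4 further C or T bases after it lay on the transcribed strand at the first base or 1 base to either side. Among all other autosomal genes of the table the share was 9.91%, and among short genes it was 10.6%. The match describes the sequence only. None of the first transcribed bases shown lay in a peak of any library.

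The first comparison asked how often RP genes carried peaks in each condition. In HU-treated cells 62 and 57 of the 77 RP genes had a peak, 80.5% and 74.0%, against 57.8% and 55.4% of short genes. The excess was 20.7 ± 2.90 percentage points (SD, n = 2). Under MMS 24 members had a peak in each replicate, 31.2% in both, against 21.6% and 16.8% of short genes, an excess of 11.96 ± 3.43 points (SD, n = 2). In both of these conditions the RP genes lay above the short genes in each replicate. Under APH the shares were 23.4% and 28.6% against 25.1% and 18.7%, so that one replicate lay below and one above, and the difference of 4.05 ± 8.21 points (SD, n = 2) was within the replicate spread. In untreated cells only 6 and 3 members had a peak, 7.79% and 3.90%, against 9.22% and 7.31% of short genes. By GENCODE's outermost bounds 12 members span 20 kb or more, and for the 65 shorter ones the excess was 20.3 ± 0.489 points under HU and 10.02 ± 1.25 points under MMS (SD, n = 2). Against all other protein-coding genes, most of them longer, the HU excess was 13.3 points, while the difference was -0.86 points under MMS and -6.41 points under APH. With every list reduced to its 4327 strongest peaks the excess was 6.47 points under HU and 3.92 points under MMS.

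**Figure D1:**
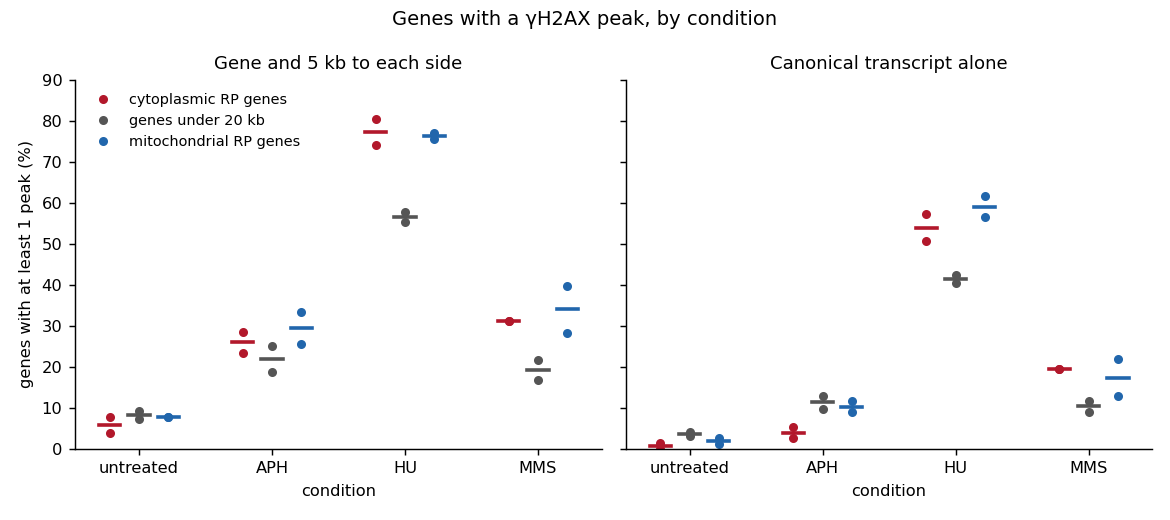
Percent of genes with at least 1 γH2AX peak (vertical axis) in each condition (horizontal axis), for the gene with 5 kb to each side (left) and for the canonical transcript alone (right). Points are the 2 replicates and bars their mean; under HU the RP genes (red) lie at 80.5% and 74.0% on the left, above the short genes (grey) at 57.8% and 55.4%, and mitochondrial RP genes (blue) lie close to the cytoplasmic ones.

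The excess under HU and MMS was shared by the genes of the mitochondrial ribosome, whose products work in another organelle and whose mRNAs have no TOP start as a class. Of 78 such genes 75.6% and 76.9% had an HU peak, and 39.7% and 28.2% had an MMS peak. For the 56 of them under 20 kb the excess over short genes was 19.3 ± 0.424 points under HU and 12.04 ± 2.89 points under MMS (SD, n = 2). Among 21 other TOP genes of translation, such as elongation factors and RACK1, the shares were 85.7% and 76.2% for HU peaks and 38.1% and 33.3% for MMS peaks. These genes are longer, and of the 13 under 20 kb 76.9% and 61.5% had an HU peak, an excess over short genes of 12.6 ± 9.19 points (SD, n = 2), and 30.8% in each replicate had an MMS peak. The higher share was thus also found outside the cytoplasmic ribosome. The HU peaks of the surroundings moved with it. Only 9 of 77 RP genes had fewer than 10 HU peaks per replicate, on average, in the 1 Mb around them, while 1530 of 7839 short genes did. Of these 9 RP genes 6 and 3 had an HU peak in their own window, 66.7% and 33.3%, against 9.08% and 7.52% of the short genes. With 10 to 30 HU peaks in the 1 Mb, 4 and 2 of 5 RP genes had one, against 31.9% and 27.9% of short genes, and with 30 to 60 it was 16 of 23 RP genes (69.6%) in each replicate, against 53.4% and 49.1%. Among genes with 60 or more HU peaks in that 1 Mb, 36 of 40 RP genes (90%) had an HU peak in each replicate, against 84.6% and 83.0% of short genes. RP genes thus lay above short genes in each replicate of all these classes, of which the lower ones hold few members. The mitochondrial RP genes under 20 kb did so too, with 30% and 20% in the lowest class and 93.75% in each replicate of the highest. The density of peak centres in the windows was also set against that in the flanks from 5 to 50 kb beyond the genes. Under HU the windows of all 77 RP genes were 1.08 and 1.12 times as dense as their flanks. For short genes the HU ratios were 1.08 and 1.09. Under MMS these ratios were 1.502 and 1.79 for all RP genes and 1.33 and 1.31 for short genes. When only the 65 RP genes under 20 kb were used, the HU ratios were 1.24 and 1.33, above the short genes in each replicate. The MMS ratios of these shorter members were 1.95 and 1.89, likewise above the short genes. For the mitochondrial RP genes under 20 kb the HU ratios were 1.23 and 1.21 and the MMS ratios 2.06 and 1.90, also above the short genes.

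Peaks at individual RP genes were found mostly under HU. The number of peaks in a member's window ranged from 0 to 2 in untreated cells, from 0 to 4 under APH and from 0 to 3 under MMS, with a median of 0 in each of these libraries. Under HU it ranged from 0 to 6 and from 0 to 7, with a median of 2 in each replicate. A peak in both HU replicates was present in 51 of 77 members, against 50.1% of short genes, and 50 had more peaks in both HU replicates than in both untreated ones, against 47.5% of short genes. None had fewer (0.23% of short genes). With the 4327 strongest peaks of each list, 5 members had more peaks in both HU replicates, against 2.60% of short genes. In 37 members both HU values exceeded those of all 6 other libraries (48.1%), against 37.7% of short genes. For 22 members the HU lists were the only ones with a peak, against 18.4% of short genes.

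**Figure D2:**
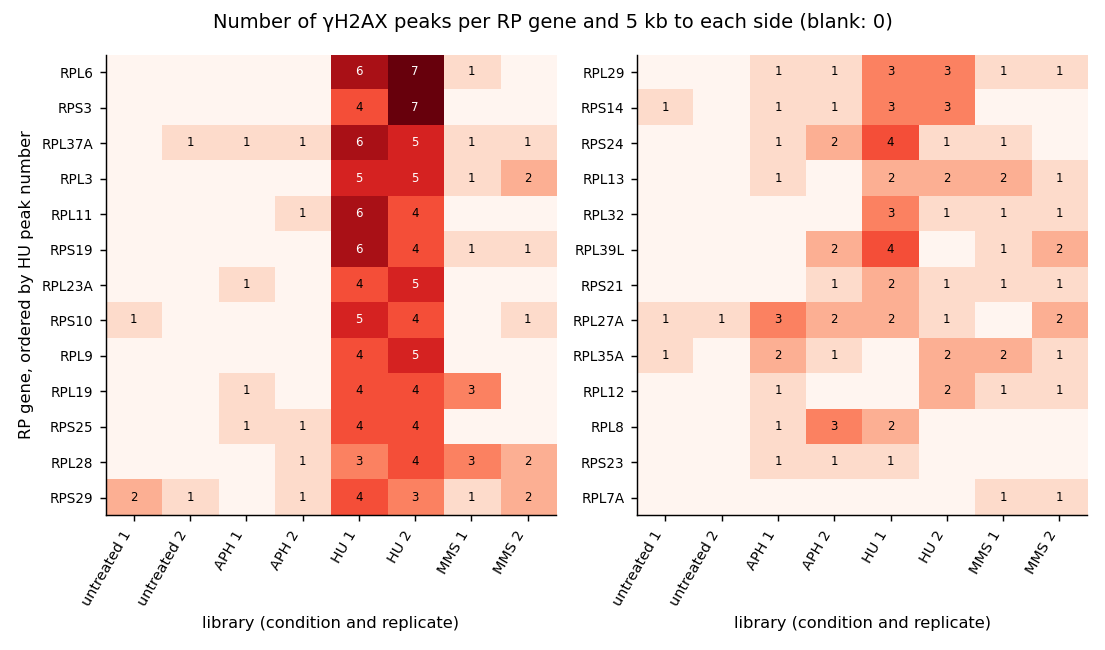
Number of γH2AX peaks in the gene and 5 kb to each side for 26 of the 77 RP genes, those with most HU peaks and those with a peak in both replicates of untreated, APH or MMS cells (rows, ordered by mean HU peak number), in the 8 libraries (columns), with darker red for more peaks and blanks for 0. The HU columns hold up to 6 and 7 peaks per gene, and in the other libraries most cells are blank.

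The members with most HU peaks were spread over both subunits. RPL6 (chr12:112405189-112418838 on GRCh38), a protein of the large subunit, had 6 and 7 HU peaks, 1 and 0 under MMS, and none in the untreated and APH libraries. RPS3, a small-subunit protein at the mRNA entry channel that also acts in DNA repair, had 4 and 7 HU peaks and none in any other library. RPL3, which reaches into the peptidyl transferase centre, had 5 and 5 HU peaks, 1 and 2 under MMS, and 0 in the untreated and APH libraries. In all of these the HU replicates stood clear of the other 6 libraries. RPL11, which binds MDM2 together with RPL5 when ribosome assembly fails and so stabilises p53, had 6 and 4 HU peaks and otherwise a single peak in APH replicate 2. RPL5 itself had 2 HU peaks in replicate 1, 0 in replicate 2, and 1 peak in MMS replicate 1. The partners thus differed, with the HU values of RPL5 overlapping those of the other libraries. RPS19, the gene most often mutated in DBA, had 6 and 4 HU peaks, 1 peak in each MMS replicate and none elsewhere. At the exit of the polypeptide tunnel, RPL23A had 4 and 5 HU peaks and otherwise 1 peak in APH replicate 1. RPL19, also at the exit, had 4 and 4 HU peaks, 1 peak in APH replicate 1 and 3 in MMS replicate 1, which was not matched by MMS replicate 2 with 0. RPS10, which is ubiquitinated on collided ribosomes, had 5 and 4 HU peaks, 1 in untreated replicate 1 and 1 in MMS replicate 2. RPL9 had 4 and 5 HU peaks and none elsewhere. RPL37A had 6 and 5 HU peaks and at most 1 in any other library, but by GENCODE's outermost bounds it is the longest member at 80.4 kb, and its window is correspondingly large. For each of these 10 genes the exact permutation test, two-sided, gave p = 0.33 for 2 HU against 2 untreated libraries, the smallest value this design allows, and p = 0.0357 against the 6 other libraries, also the smallest possible. Adjusted over the 19111 genes by the Benjamini-Hochberg method the latter becomes 0.0831, and no gene passed 0.05. The 10 genes were chosen by their HU peak number, the value tested, so these p-values are no independent support.

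The shares of both subunits lay close together under HU. Among the 43 genes of the large subunit 77.9% ± 4.93 had an HU peak (SD, n = 2) and among the 29 of the small subunit 79.3% in both replicates. Under MMS the shares were 37.2% ± 3.29 and 22.4% ± 2.44 (SD, n = 2), with the large subunit above the small one in each replicate. The 25 members that host snoRNAs had an HU peak in 80% of cases in each replicate, and of the 47 that do not, paralogs aside, 80.9% and 74.5% did. RPL4, which hosts 5 snoRNA genes, had 1 and 0 HU peaks.

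The stalk proteins RPLP0, RPLP1 and RPLP2 form the flexible arm that recruits translation factors. RPLP0 had no HU peak and a single peak in MMS replicate 1. RPLP1 had 1 and 3 HU peaks and none elsewhere, and RPLP2 had 0 and 1 HU peaks and 1 and 0 MMS peaks. RPLP0 and RPLP2 were thus below the median of the members in both HU replicates. The 5 paralogs, whose symbols end in L, were mixed. RPL3L, the striated-muscle form of RPL3, had 3 and 3 HU peaks and none elsewhere, but its window overlaps that of its neighbour RPS2, which had 2 and 2. RPS27L, a target of p53, had 2 and 5 HU peaks and no other peak. RPL39L had 4 and 0 under HU, 1 and 2 under MMS and 0 and 2 under APH, RPL36AL had 1 and 0 HU peaks and 0 and 1 MMS peaks, and RPL10L, a retrogene used in spermatogenesis, had none in any library. Of the 16 DBA genes 78.1% had an HU peak and 43.8% an MMS peak, as the mean of both replicates. RPS26 had 4 and 4 HU peaks, RPS29 4 and 3, and RPL35A 0 and 2.

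Position relative to the transcript was then examined, using the canonical transcript of each gene, since GENCODE's outermost bounds can reach far upstream of the usual start. All 77 canonical transcripts are under 20 kb, the longest spanning 18.5 kb, and their median length is 4437 bp, against 7723 bp for the 8736 short genes defined in the same way. No canonical start of an RP gene lay in a peak of any of the 8 libraries, and by gene bounds no member's start lay in a peak of both HU replicates. Of short genes 2.11% and 2.07% had their canonical start in an HU peak, and by gene bounds 1.08% had it in both HU replicates. At shares this low few covered starts would be found among 77 genes, so their absence says little. The canonical starts of the 78 mitochondrial RP genes likewise lay in no peak of any library. At the starts of the RefSeq table, which holds 73 for the members, 1 was covered, a start of RPL6 in HU replicate 2.

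Inside the transcript the share of bound RP genes was higher. In the 500 bp before the start 1.30% of RP genes had an HU peak in each replicate, against 3.91% ± 0.34 of short genes (SD, n = 2). In the first 500 bp after it the share was 6.49% ± 1.84 for RP genes and 3.49% ± 0.097 for short genes (SD, n = 2). Mitochondrial RP genes had no HU peak in the 500 bp before the start. The values of RP genes next to the start rest on few genes and are imprecise. Within 500 bp to either side, 6.49% and 9.09% of RP genes had an HU peak, against 5.57% and 4.98% of short genes, so that the low values around the start were seen in both sets. From 2 to 2.5 kb inside the start the share was 37.0% ± 2.75 for RP genes and 18.5% ± 1.24 for short genes (SD, n = 2). On the other side of the start it reached 27.3% ± 3.67 from 2.5 to 2 kb upstream, against 16.5% ± 1.37 (SD, n = 2). The gap was thus flanked by a peak on each side, the higher one inside the gene. Mitochondrial RP genes followed the same course downstream of the start. Under MMS the share in each bin from 500 bp to 5 kb after the start was between 3.25% and 7.14% for RP genes, as the mean of both replicates. That of short genes was between 0.87% and 2.09%. Bins were not cut at the transcript end, so for the shorter transcripts the outer ones lie past it. Upstream, from 5 kb to the start, RP genes stayed at 0 to 1.95% under MMS and short genes at 0.263% to 1.76%. From 0 to 500 bp past the transcript end the MMS share was 3.90% for RP genes and 1.21% for short genes. From 1000 to 1500 bp past the end it was 2.60% and 1.11%, and from 4500 to 5000 bp it was 0 and 1.13%. The MMS excess was thus seen downstream of the start, inside the transcripts and shortly past their ends. Around the start each 500-bp value under MMS rests on at most 6 of 77 genes in a replicate and is imprecise. The values past the end rest on few genes as well.

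**Figure D3:**
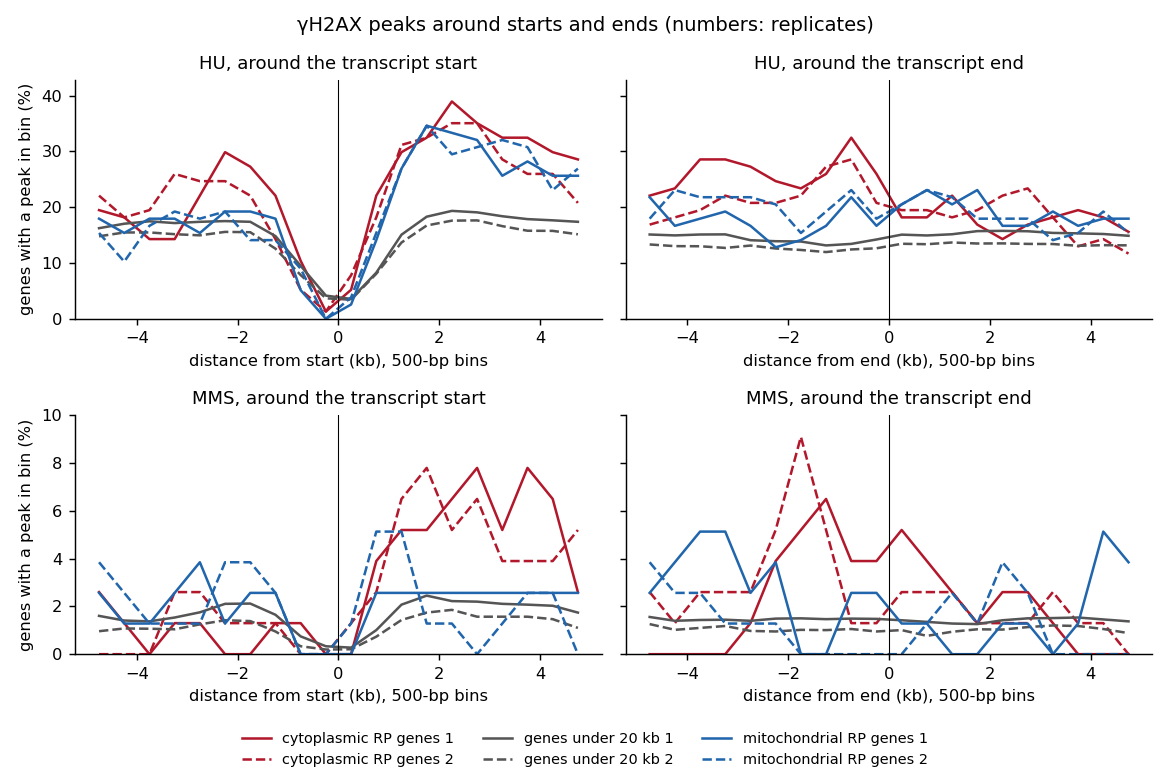
Percent of genes with a peak in each 500-bp bin (vertical axis) against distance from the canonical transcript's start (left) and end (right) under HU (top) and MMS (bottom), with replicate 1 solid and replicate 2 dashed. Under HU the RP genes (red) fall to 1.30% just before the start, a value that rests on few genes. They reach a mean of 37.0% at 2 to 2.5 kb, against 18.5% for short genes (grey). Under MMS the red lines leave the grey ones downstream of the start.

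The fraction of gene bodies inside peaks, which takes account of length, separated the treatments. In the 65 RP genes under 20 kb HU peaks covered 19.5% and 18.5% of the gene bodies, and in short genes 11.8% and 10.3%, a ratio of 1.72 ± 0.0947 (SD, n = 2). MMS peaks covered 1.85% and 2.13% of the RP bodies and 0.947% and 0.694% of the short ones, a ratio of 2.51 ± 0.789. APH peaks covered 0.191% and 0.177% of the RP bodies and 1.27% and 0.894% of the short ones, a ratio of 0.174 ± 0.0336. APH was therefore the one treatment with RP bodies below short genes in both replicates, as they also were in untreated cells. The APH values rest on only 696 and 644 bp of peaks in RP bodies, so the small SD overstates their precision. The ratios under MMS and HU did not overlap those under APH, although with 2 against 2 libraries the exact permutation test, two-sided, cannot go below p = 0.33, which it gave for MMS against APH and for HU against APH. In untreated cells the coverage of RP bodies was 0.111% and 0, against 0.385% and 0.293%. The mitochondrial RP genes under 20 kb had ratios of 1.61 and 1.99 for HU peaks, where the cytoplasmic ones had 1.66 and 1.79. Under MMS they had 1.75 and 1.499, both below the cytoplasmic values of 1.96 and 3.07. Under APH they had 0.628 and 1.46, where the cytoplasmic genes had 0.150 and 0.198. When all 77 members were used, the long outer bounds included, the ratios were 1.07 under HU, 1.76 under MMS and 0.394 under APH. The APH peaks of RP windows lay mostly outside the genes, with only 4 and 2 of 77 canonical transcripts (5.19% and 2.60%) holding one, against 12.9% and 9.76% of short genes. Under MMS 15 transcripts did in each replicate (19.5%), against 11.7% and 9.09% of short genes, and under HU 44 and 39 did (57.1% and 50.6%), against 42.3% and 40.4%.

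Coding exons took part. They make up 10.7% of the bodies of RP genes under 20 kb, and HU peaks covered 22.8% and 19.0% of their coding bases, against 8.07% and 7.22% for short genes. Under MMS 3.07% and 2.87% of the coding bases of RP genes were covered, against 0.960% and 0.583%. In RP genes coding bases were covered about as often as the gene body under HU, whereas in short genes they were covered less often than the body. Transcript ends lay in HU peaks in 11 and 11 of 77 canonical transcripts (14.3%), and in 10.4% and 9.12% of short genes. For mitochondrial RP genes the shares were 11.5% and 12.8%. By gene bounds 9.09% and 13.0% of RP genes had their end in an HU peak, against 10.5% and 9.26% of short genes. Replicate 1 thus lay below the short genes with these bounds.

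Peaks in RP windows were close in height to those of the whole lists. Their median fold enrichment over background was 2.74 and 2.81 under HU (177 and 161 peaks), 2.67 and 2.63 under MMS (30 and 29 peaks), 2.56 and 2.67 under APH (25 and 28 peaks) and 2.72 and 2.53 in untreated cells (7 and 3 peaks). Over all autosomal peaks the medians were 2.70 and 2.77 with HU, 2.64 in each replicate with MMS, 2.55 and 2.67 with APH, and 2.64 and 2.61 without treatment. Of the HU peaks 81.4% and 64.0% had a q-value of at most 0.05, the p-value corrected for all positions tested, against 78.4% and 60.3% of all autosomal HU peaks. None of the MMS and untreated peaks at RP genes did, and 1 APH peak did. Over the whole lists such peaks were also rare, at 0.164% and 0.191% with MMS, 0.879% and 0.508% without treatment, and 0.549% and 1.31% with APH. A peak of the other replicate overlapped 49.7% and 54.0% of the HU peaks in RP windows, against 55.1% and 60.8% in short-gene windows. Under MMS 23.3% and 24.1% of the RP peaks, 7 in each replicate, were found again in the other replicate, against 8.53% and 11.4% in short-gene windows and 5.98% and 6.97% over all autosomal peaks. Under APH it was 1 peak in each replicate, 4% and 3.57%, against 13.2% and 18.2% in short-gene windows.

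MMS gave a peak in both replicates at 13 of 77 RP genes, against 7.83% of short genes, and 10 members had more peaks in both MMS replicates than in both untreated ones, against 5.45%. The 10 with the highest fold enrichment were RPL32, RPL35A, RPL37A, RPL3, RPL29, RPL28, RPS19, RPL13, RPL12 and RPS21, all but RPS19 and RPS21 from the large subunit. RPL28 had most, with 3 and 2 MMS peaks, 0 and 1 under APH and none in untreated cells. RPL7A had 1 peak in each MMS replicate and none in any other library. At 7 genes the replicates' peaks overlapped each other, within the gene bounds of RPL35A, RPL32, RPL37A, RPL39L, RPS19 and RPL12 and downstream of RPS21. Of these 7 overlaps 5 lay within the canonical transcript, and 2 contained coding bases.

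The part shared by both MMS replicates is shown for RPL12, RPS19 and RPL35A, as GRCh38 reference sequence on the transcribed strand with coding bases in capitals. The shared parts span 200, 256 and 174 bases and lie 1.43 to 1.63 kb, 1.04 to 1.30 kb and 3.65 to 3.82 kb inside the canonical start.
RPL12, chr9:127449775-127449974, minus strand: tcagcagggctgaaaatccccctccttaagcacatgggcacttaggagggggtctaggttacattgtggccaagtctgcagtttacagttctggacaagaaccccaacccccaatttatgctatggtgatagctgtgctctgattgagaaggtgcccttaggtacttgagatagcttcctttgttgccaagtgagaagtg
RPS19, chr19:41861296-41861551, plus strand: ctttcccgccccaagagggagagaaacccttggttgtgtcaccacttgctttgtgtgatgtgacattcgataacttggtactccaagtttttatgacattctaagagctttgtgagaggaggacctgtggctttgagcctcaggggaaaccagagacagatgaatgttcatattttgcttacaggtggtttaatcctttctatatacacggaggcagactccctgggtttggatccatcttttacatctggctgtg
RPL35A, chr3:197953837-197954010, plus strand: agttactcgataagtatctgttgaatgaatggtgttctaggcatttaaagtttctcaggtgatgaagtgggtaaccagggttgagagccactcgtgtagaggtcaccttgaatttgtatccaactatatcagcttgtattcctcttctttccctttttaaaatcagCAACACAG
The RPL12 and RPS19 stretches are intronic throughout and that of RPL35A ends 8 bases into a coding exon, with a GC content of 49.0%, 45.7% and 39.7%. Their TOP starts, printed above, lie outside these peaks. RPL12 sits at the base of the stalk, and its fold enrichment was 2.69 and 2.62. That of RPS19 was 2.60 and 2.77, and that of RPL35A, a DBA gene, 3.25 and 2.60.

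**Figure D4:**
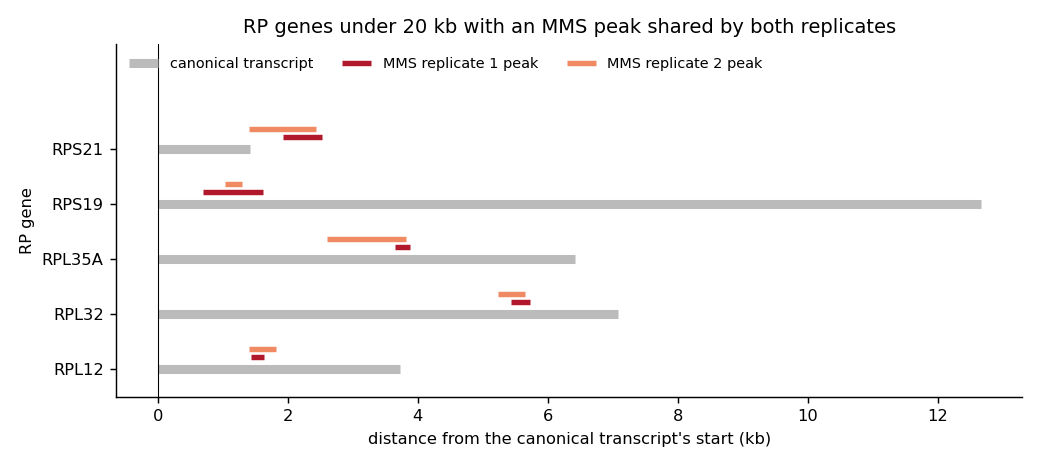
MMS peaks that overlap each other in both replicates at the 5 RP genes under 20 kb that have them (rows), against distance from the canonical transcript's start in kb, with the transcript in grey, replicate 1 in red and replicate 2 in orange. At RPL12, RPL32, RPL35A and RPS19 the peaks lie within the transcript, and at RPS21 they lie at or past its end at 1.42 kb.

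Under HU there were 93 overlaps of this kind at 38 genes. By GENCODE's outermost bounds 47 had their centre in the gene body, 25 upstream and 21 downstream. Within the canonical transcript lay 35 of the 93, and 25 contained coding bases of it. A pair of those within the transcript is shown in the same form, from genes of the tunnel exit.
RPL23A, chr17:28722562-28722805, plus strand: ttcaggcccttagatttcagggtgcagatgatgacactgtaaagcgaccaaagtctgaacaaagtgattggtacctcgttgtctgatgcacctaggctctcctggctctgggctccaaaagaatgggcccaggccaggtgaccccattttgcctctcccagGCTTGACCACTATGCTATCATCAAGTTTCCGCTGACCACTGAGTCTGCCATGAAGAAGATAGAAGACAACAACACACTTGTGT
RPL19, chr17:39200984-39201255, plus strand: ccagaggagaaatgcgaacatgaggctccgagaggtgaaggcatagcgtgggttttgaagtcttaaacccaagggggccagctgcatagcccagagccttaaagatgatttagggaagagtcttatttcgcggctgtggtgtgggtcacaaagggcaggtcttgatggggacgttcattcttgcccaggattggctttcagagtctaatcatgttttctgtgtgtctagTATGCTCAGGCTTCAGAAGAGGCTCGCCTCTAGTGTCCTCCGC
The RPL23A stretch covers 83 coding bases and an intron-exon boundary, at a fold enrichment of 3.41 and 2.85 in the replicates. The RPL19 stretch covers 43 coding bases. The highest mean fold enrichment of all 93 was 3.28, at RPL3, 779 bp upstream of its start by GENCODE's outermost bounds.

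The members with a peak in both replicates were in part different between APH and MMS. Only 1 APH peak of RP windows in each replicate overlapped a peak of the other, 4% and 3.57%. Whether the members differ by more than the replicates disagree was not tested. A peak in both APH replicates was found at 9 of 77 members, against 8.96% of short genes, namely RPL35A, RPS24, RPS25, RPL8, RPS14, RPL29, RPL27A, RPS23 and RPL37A, of which RPL29, RPL35A and RPL37A also had a peak in both MMS replicates. More peaks in both APH replicates than in both untreated ones were found at 6 members, against 5.97% of short genes. Both shares are near those of the short genes. RPL8 had 1 and 3 APH peaks and none under MMS, and RPS14, whose loss contributes to a deletion form of myelodysplastic syndrome, had 1 and 1 under APH and none under MMS. RPL8, RPS14, RPS23 and RPS25 had more peaks in both APH than in both MMS replicates (4.21% of short genes), and RPL28, RPL3, RPL32, RPL7A and RPS19 the reverse (2.74% of short genes). RPL22, the partner of the viral RNA EBER1 in B-lymphocytes that carry Epstein-Barr virus, had 4 peaks in APH replicate 1 and 0 in replicate 2, the largest disagreement between replicates under APH.

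In untreated cells a peak in both replicates was found at RPS29, with 2 and 1, and at RPL27A, with 1 and 1, 2 of 77 members against 2.16% of short genes. RPL27A had 3 and 2 APH peaks, 2 and 1 HU peaks and 0 and 2 MMS peaks, so it had a peak in 7 of 8 libraries and its treated values overlapped the untreated ones. RPS29 and RPL37A also had a peak in 7 libraries, and no member had one in all 8. All 3 span more than 20 kb by GENCODE's outermost bounds.

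No peak in any library was found at 7 of 77 members, against 30.5% of short genes. Among them were RPL10L, RPL18, RPS15, RPS18 and RPS9, and their surroundings differed. The 1 Mb around RPL18 held 108 and 97 HU peaks and that around RPS15 78 and 85, whereas those around RPS9 and RPL10L held none in either HU replicate. RPS9 lies among the leukocyte receptor genes and RPS18 in the major histocompatibility complex, regions with alternate haplotypes in the assembly. Whether reads there were lost in alignment was not tested.

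RP pseudogenes, processed copies of RP mRNAs scattered over the genome, gave a further comparison. Of 1449 on the autosomes, 7.59% and 5.73% overlapped an HU peak, against 5.99% and 4.96% of 8363 other processed pseudogenes, which are longer (median 611 bp against 474 bp). Under MMS the shares were 0.759% and 0.345% against 0.717% and 0.586%. With 5 kb added to each side, 31.5% and 27.7% of RP pseudogenes had an HU peak, against 23.2% and 20.4% of the others, and 80.5% and 74.0% of the RP genes themselves. Reads of low mapping quality were removed before peaks were called, and what was lost in this way at RP genes and their near-identical copies was not measured.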

How the data were processed

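γH2AX ChIP-seq peaks of 8 libraries were analysed. The input library is not analysed here. According to the methods and the submitters' processing notes, reads were aligned to GRCh38 with Bowtie2 at default settings, filtered on mapping quality with SAMtools, cleared of PCR duplicates, and peaks were called with MACS2 in its broad mode on each replicate. Versions are not given in the sources used here. The deposited lists give the fold enrichment of each peak as a ratio, its p-value and q-value as −log10, and a score that the authors' peak caller wrote and that was not used. No file gives reads, so depth is unknown and only the spread between replicates measures precision.

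Gene bounds and canonical transcripts came from GENCODE release 44 on the same build, and starts from RefSeq on GRCh38.p14. Peaks on chromosomes 1 to 22 were counted, and density was set against 2756 Mb of assembled autosomal bases. Calculations used Python 3.11.15 with NumPy and pandas. Shares of genes were described without a test, and single values by the exact permutation test, two-sided. Counting was tested on simulated peaks. The members and gene lists were chosen with earlier results of these data known. Genes named were those with a peak in both replicates of untreated, APH or MMS cells (at most 10 per condition, by fold enrichment), the 10 with most HU peaks, paralogs ending in L, stalk genes, up to 4 DBA genes and members without peaks, except that some members are not reported here. RPL5, RPL7A, RPL4, RPS2 and RPL22 were named, and the sequences shown were chosen, after their values were seen. Canonical transcripts and body coverage were added after the data were seen.

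Alternatives were another gene window, peak centres, a q-value of at most 0.05, equal peak numbers, a wider member list, all genes as comparison, canonical bounds and leaving out replicates. Whether the replicate numbers pair the libraries cannot be told from the counts. Deviations of same-numbered libraries over the members correlated at 0.07, -0.03 and -0.07 between untreated cells and APH, HU and MMS. The untreated lists held only 7 and 3 peaks at the members, so these correlations could be small with or without pairing.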

Additional observations from a re-analysis of the deposited data

How the results depend on the processing

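The HU excess of 20.7 percentage points kept its direction in every alternative run, at 17.0 with the gene body alone, 17.5 with a q-value of at most 0.05, 13.3 against all protein-coding genes and 6.47 with the 4327 strongest peaks of each list. It ranged from 18.6 to 22.7 with either replicate left out. The MMS excess of 11.96 points ranged from 9.53 to 14.4 with either replicate left out, and was 3.92 with equal peak numbers, -0.86 against all protein-coding genes, which are longer, and -0.0510 for peaks with q-values up to 0.05, where only 20 peaks per MMS list remained. The APH difference of 4.05 points was -3.43 with the gene body alone and -6.41 against all protein-coding genes, and ran from -1.75 to 9.86 with a replicate left out. The untreated difference of -2.42 points was -0.0446 with a q-value of at most 0.05, -6.35 against all protein-coding genes and -5.19 for members under 20 kb, and ran from -3.41 to -1.43 with a replicate left out.

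The number of members with more peaks than in both untreated libraries was 5 against 50 under HU with equal peak numbers (2.60% of short genes). It ranged from 50 to 62 with a library left out, against 48.4% to 55.7% of short genes. Under MMS it was 1 against 10 with equal peak numbers (1.38% of short genes) and, as in short genes, 0 for peaks that pass a q-value of 0.05. With a library left out it ranged from 11 to 22. It was 20 without MMS replicate 1 (13.0% of short genes) and 22 without MMS replicate 2 (17.6%). Under APH it was 6, but 2 with the gene body alone (2.55% of short genes). It was 0 with equal peak numbers (0.689%) and likewise 0 for peaks with q-values up to 0.05 (0.0128%). With a library left out it ranged from 7 to 18. It was 18 without APH replicate 1 (14.6% of short genes) and 15 without APH replicate 2 (20.2%). Where no cause is named, the cause was not tested. With the replicate block the difference of 6.5 HU peaks at RPL6 had p = 0.5 in the exact test, the smallest value that 2 pairs allow, and against the 6 other libraries the difference of 6.33 had p = 0.0357 in the exact permutation test. RPL6 was chosen as the member with most HU peaks, so these values are no independent support. The body coverage ratio with equal peak numbers was 2.91 ± 2.31 under HU, 1.81 ± 0.338 under MMS and 0.100 ± 0.142 under APH (SD, n = 2).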
